A study of Homo sapiens with 28 samples.

Results

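The late response of CHL-1 melanoma cells to a high dose of the BET inhibitor BAY1238097 was measured on 9 arrays. The members were the 5 arrays titled with 468 nM BAY1238097 for 24 h and the 4 titled with DMSO vehicle for 24 h, out of 28 arrays in the series. CHL-1 is an established human melanoma line, here 1 line grown in DMEM with fetal calf serum and plated 1 day before treatment. The other arrays held 468 nM for 4 h (5 arrays), 75 nM for 24 h (5) and for 4 h (5), and DMSO for 4 h (4). The submitters describe 468 nM as the IC90 and 75 nM as the IC50 of the compound in this line. The labels do not name separate cultures for the arrays of a group, and p-values here therefore reflect just the variation among these samples, which may be technical.

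BET proteins, which include BRD2 and BRD3, bind acetylated lysines on histones through their bromodomains. At promoters and enhancers they recruit the kinase P-TEFb, which releases RNA polymerase II from pausing. BET inhibitors displace the bromodomains from chromatin, and in many tumour cells they are known to lower MYC and other highly transcribed genes and to raise HEXIM1, an inhibitor of P-TEFb.

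The arrays were compared on the log2 scale of the deposited intensities. A gene was tested where its log2 value passed 5 on at least 4 arrays, which kept 9285 of 22357 genes. A gene that was high in 1 group alone could pass this way. Median log2 intensity over all probe sets lay between 2.44 and 2.49 on every array, so values near these medians carry little signal. Principal component 1 held 38.7% of the variance, and the 5 arrays at 468 nM and 24 h stood at 40.6 to 49.0 on it, apart from all others. The lowest correlation between arrays over the genes tested was 0.946 within the 468 nM group and 0.963 within the DMSO group, against a highest value of 0.922 between the groups. The melanocyte lineage was visible in part. SOX10, the neural crest factor that specifies melanocytes, averaged 10.07 at 468 nM and 9.48 in DMSO, and PAX3, S100B and ERBB3 were above the filter too. MITF, TYR, TYRP1, PMEL and MLANA, the master regulator and pigment proteins of differentiated melanocytes, were not above it, with DMSO means between 0.86 and 2.86. Of 9 keratinocyte, 8 fibroblast and 9 endothelial markers on the array 0 passed the filter, and of 9 leukocyte markers 1, CD68, did. The summed intensity of the leukocyte markers was 52.8 to 63.5 at 468 nM and 60.4 to 71.9 in DMSO, against 2676 to 3840 and 2443 to 2882 for the melanocyte lineage list. That list has 22 genes on the array, with SOX10 the brightest, so the sums cover lists of unlike size.

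After 24 h at 468 nM, most measured genes of cell division, DNA replication, nucleotide synthesis and ribosome assembly were lower. Most genes of growth restraint and cilia were higher, as were 16 of 32 lysosome and autophagy genes. The gene lists were chosen with earlier results of these data known, so their shares describe the lists and test nothing. Large changes in single genes included those of secreted and surface proteins of inflammation (IL7R, IL6, IL1RL1), which were lower, and of the metabolic regulators TXNIP and ARRDC4, which were higher. limma called 4231 of 9285 genes at an adjusted p below 0.05, which is 45.6% of the genes tested. Of these 1896 (20.4%) were higher and 2335 (25.1%) lower. At least 2-fold changes were called for 258 higher (2.78%) and 625 lower genes (6.73%). In 350 of these 883 genes, at least 1 group had a mean below 5, so the size of such a change is uncertain. This holds below also where it is not repeated, as for POLE2, TRAF1, SPRY1, CDCA5 and UBE2C. Of the 2-fold higher genes, 78 had a DMSO mean below 5, among them CALCOCO1, H6PD, TM7SF2 and BBS1. Such genes could pass the filter through the 468 nM arrays, where they were high, so their p is no independent support. The median log2 change over all genes tested was -0.019, and the middle of the distribution ran from -0.378 to 0.301 (quartiles). On 2797 genes (30.1%) the arrays of the groups did not overlap, 1206 higher (13%) and 1591 lower (17.1%). In the text below, a value with ± is a log2 difference, 468 nM minus DMSO, with its standard error, unless an SD is named, and each p is limma's, adjusted over all genes tested.

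**Figure D1:**
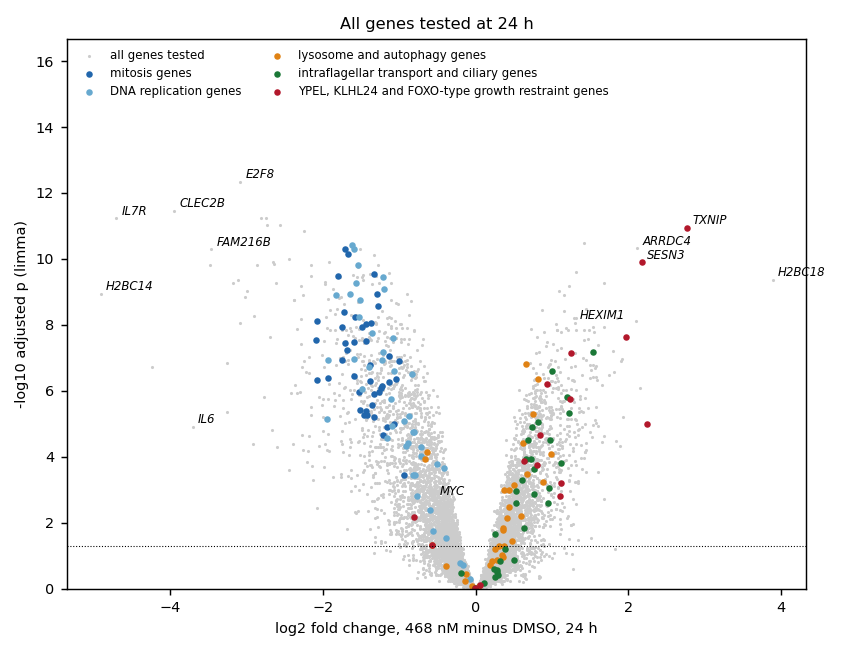
Each point is 1 of 9285 genes tested at 24 h, placed by its log2 fold change, 468 nM minus DMSO (horizontal), and the negative log10 of its limma adjusted p (vertical), and the dotted line marks an adjusted p of 0.05. Mitosis and DNA replication genes lie on the left, and called ciliary and most called growth restraint and lysosome genes on the right, while H2BC14 at -4.92 and H2BC18 at 3.89 are the extremes of the plot.

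The leading genes were chosen among called genes with separate groups and a lower group mean of at least 4. Their separation is thus a condition of the choice and no further support. The gene with the largest rise was TXNIP, an inhibitor of thioredoxin that also limits glucose uptake. Its log2 intensity was 10.48, 10.98, 11, 10.76 and 10.66 on the 468 nM arrays, against 8.10, 7.95, 8.18 and 7.79 on the DMSO arrays. The lowest 468 nM array thus lay far above the highest DMSO array, and the rise was 2.77 ± 0.18 or 6.82-fold (limma adjusted p = 1.14e-11). ARRDC4, an arrestin-domain protein related to TXNIP that likewise lowers glucose uptake, had 7.79, 8.28, 8.31, 8.34 and 7.70 at 468 nM and 5.81, 6.14, 6.14 and 5.79 in DMSO. Its arrays did not overlap either, and it was 4.32-fold higher (limma adjusted p = 4.81e-11). SESN3, a sestrin that restrains the growth kinase mTORC1, had 8.18, 9.13, 8.59, 8.46 and 8.21 at 468 nM, against 6.75, 6.04, 6.12 and 6.45 in DMSO. The groups were again separate, with a 4.51-fold rise (limma adjusted p = 1.25e-10). KLHL24, a substrate adaptor of a CUL3 ubiquitin ligase, had 8.49, 8.69, 8.70, 8.33 and 8.51 at 468 nM and 7.12, 6.65, 6.19 and 6.32 in DMSO, a 3.93-fold rise without overlap (limma adjusted p = 2.28e-08).

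The other genes among the 10 with the largest rises had separate groups by the same choice. ZC3H6, a zinc finger protein, rose by 2.10 ± 0.20 and the transcriptional coactivator CALCOCO1 by 1.86 ± 0.18. CLIP3, a microtubule-binding protein, rose by 1.90 ± 0.33, and its 468 nM arrays lay between 6.70 and 8.35, against 5.0 to 6.32 in DMSO. H6PD, which makes NADPH inside the endoplasmic reticulum, rose by 1.85 ± 0.32. The transcribed pseudogenes H2BC20P (1.92 ± 0.22) and TOB2P1 (1.91 ± 0.22) share sequence with parent genes, so their signal may include RNA of those genes.

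By the same rule, the largest falls were those of GIPC3 and FAM216B. GIPC3, a PDZ-domain adaptor known from hearing loss, had 4.01, 4.89, 4.72, 3.82 and 3.38 at 468 nM, against 7.73, 7.88, 7.31 and 7.65 in DMSO. It fell by 3.48 ± 0.26 on the log2 scale (limma adjusted p = 1.5e-10), and since all its 468 nM arrays were below the filter value of 5, the size is uncertain. FAM216B, a protein of unclear function, had 7.31, 6.28, 7.11, 6.32 and 6.2 at 468 nM and 9.93, 10.27, 9.95 and 10.30 in DMSO. Its signal stayed well above background in both groups, and it was 11.1-fold lower (limma adjusted p = 5.11e-11). RXRG, a retinoid X receptor that marks neural crest-like melanoma states, had 7.69, 6.87, 8.22, 7.48 and 8.54 at 468 nM, against 10.62, 10.90, 10.47 and 10.52 in DMSO. The 468 nM arrays varied more than the DMSO arrays but stayed below them all, and RXRG was 7.29-fold lower (limma adjusted p = 1.5e-10). BCAT1, which starts the breakdown of branched-chain amino acids, had 5.24, 5.75, 5.28, 5.57 and 5.89 at 468 nM and 8.67, 8.32, 8.35 and 8.12 in DMSO, a 7.05-fold fall without overlap (limma adjusted p = 5.56e-12).

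E2F8, an E2F-family repressor that acts in S phase, had 4.35, 3.99, 4.26, 4.45 and 4.79 at 468 nM, against 7.34, 7.75, 7.32 and 7.38 in DMSO. It fell by 3.08 ± 0.16 on the log2 scale, with the smallest p of these 10 genes (limma adjusted p = 4.58e-13). All its 468 nM arrays were below the filter value of 5, so the size is uncertain. SLN, sarcolipin, a regulator of the calcium pump SERCA, had 6.74, 6.88, 6.5, 6.10 and 7.91 at 468 nM and 9.61, 10.10, 9.81 and 10.13 in DMSO, and fell by 3.09 ± 0.30. MOG, a surface protein of myelin, fell by 3.26 ± 0.38. Its 468 nM replicate 2 stood at 2.53, below the other 468 nM arrays at 4.30 to 4.47, and the DMSO arrays lay between 7.03 and 7.76. All its 468 nM arrays were below the filter value of 5, so the size is uncertain. Of the 8 probe sets naming MOG, 7 stood between -3.21 and -3.26, and the dimmest, with a mean of 1.32, at -0.006. Most of the 7 had the same mean (6.004) and the same difference (-3.213), so they may repeat the same measurement. The C-type lectin CLEC12B (-2.99 ± 0.25), the adhesion molecule CLMP (-2.74 ± 0.17) and the scavenger receptor SCARA5 (-2.74 ± 0.17) completed the 10.

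**Figure D2:**
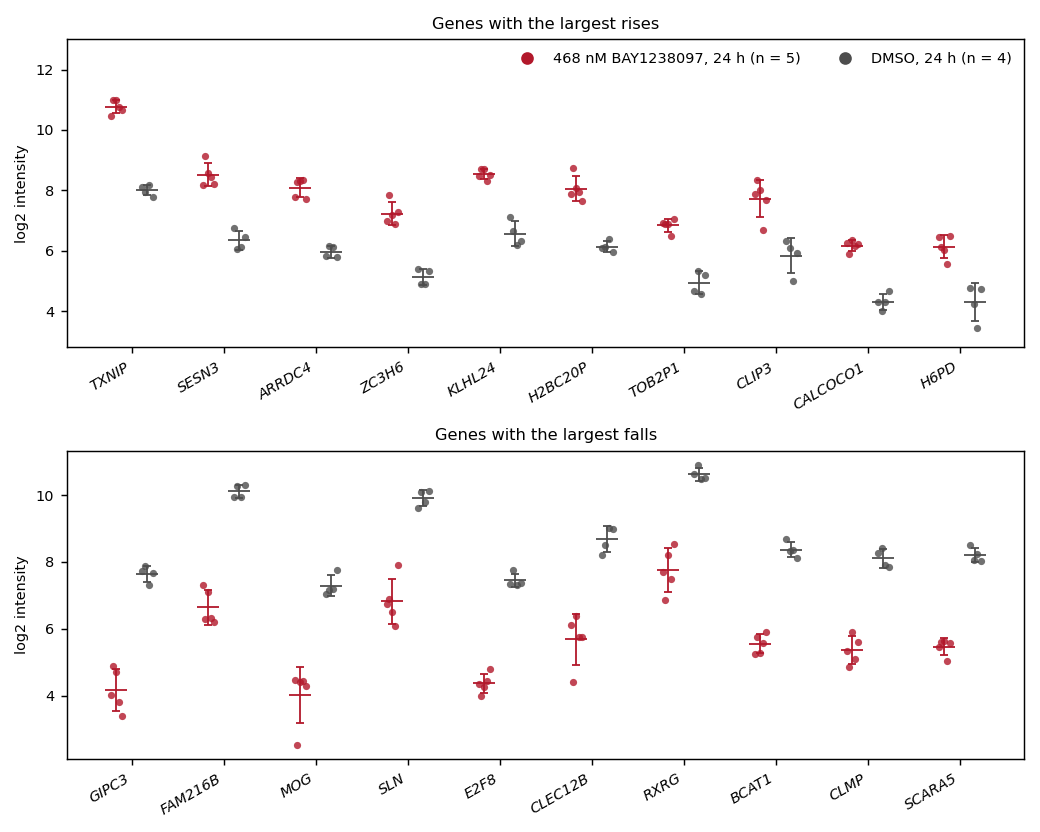
Log2 intensity (vertical) of the 10 genes with the largest rises (top) and falls (bottom) among called genes whose groups do not overlap and whose lower mean is at least 4, with 1 point per array, 5 arrays at 468 nM left of 4 in DMSO, and bars for the mean and SD. That the groups do not overlap for these 20 genes follows from this choice, and TXNIP runs from 10.48 to 11 at 468 nM against 7.79 to 8.18 in DMSO.

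The reported readouts of BET inhibition changed in both directions, as the genes on that list do. Of 13 measured genes 5 were higher and 5 lower, against 45.6% called among all genes tested, and their median was 0.048. HEXIM1, the inhibitor of P-TEFb, had 8.18, 8.51, 8.46, 8.12 and 8.24 at 468 nM and 7.33, 6.89, 6.71 and 7.10 in DMSO. It was 2.46-fold higher, with separate groups (limma adjusted p = 8.76e-09). SERPINI1, a neuronal serine protease inhibitor, had 9.79, 9.67, 10.12, 9.84 and 9.89 at 468 nM, against 8.05, 8.52, 8.26 and 8.46 in DMSO, and was 2.91-fold higher (limma adjusted p = 1.12e-05). MYC, the growth-promoting transcription factor, had 8.65, 8.09, 8.54, 7.88 and 8.51 at 468 nM and 9.0, 8.92, 8.73 and 8.83 in DMSO. The groups lay close together without overlap, and MYC was 1.45-fold lower (limma adjusted p = 0.00186). CCND1, cyclin D1, had 8.82, 8.86, 8.81, 8.56 and 8.56 at 468 nM, against 8.76, 8.64, 8.65 and 8.87 in DMSO. These groups overlapped fully, at a difference of -0.01 ± 0.12 that did not pass the test (limma adjusted p = 0.964).

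Of the BET proteins, BRD2 averaged 10.04 ± 0.07 at 468 nM and 9.71 ± 0.08 in DMSO (SD, n = 5 and 4), and rose by 0.33 ± 0.08 (limma adjusted p = 0.00121). Among its 14 probe sets the 6 brightest stood between 0.32 and 0.39 and the next, at a mean of 7.22, at -0.019. Averaged over its probe sets, BRD2 had a difference of 0.29 (adjusted p = 0.0824). BRD3 rose by 0.49 ± 0.14 (limma adjusted p = 0.00774), although its arrays overlapped and the adjusted p was 0.0549 when only the groups compared entered the fit. CDK6, a kinase of the G1 phase, was below the filter with a highest value of 5.16. In the list of BET proteins and chromatin partners 4 of 18 were higher and 4 lower (median 0.059), a share near the background, and 2 were higher and 1 lower when only the groups compared entered the fit, or 3 and 2 with no filter. The acetyltransferase KAT2B rose by 1.08 ± 0.15 and JMJD6, an oxygenase, fell by 1.13 ± 0.17. EP300, the acetyltransferase p300, stood at 0.43 ± 0.17 (adjusted p = 0.0379). It missed the threshold without 468 nM replicate 2 (adjusted p = 0.148) or without DMSO replicate 2 (0.155), 3 (0.0744) or 4 (0.059).

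P-TEFb and elongation genes had 9 higher and 1 lower of 22 measured (median 0.128), 45.5% called against 45.6% for all genes tested. Besides HEXIM1, the super elongation complex members MLLT3 (1.0 ± 0.13), ELL2 (0.81 ± 0.08) and AFF1 (0.62 ± 0.14) rose, all without overlap between the groups. When only the groups compared entered the fit, 6 were higher and 0 lower. In the MYC network 4 of 9 genes were higher and 1, MYC itself, was lower (median 0.244), 55.6% called. MXD1, a MAX-binding antagonist of MYC, rose by 1.04 ± 0.19 (limma adjusted p = 7.59e-05), with 5.65 to 6.49 at 468 nM, against 4.60 to 5.67 in DMSO. TXNIP and ARRDC4, both targets of the glucose-sensing relatives of MYC, are the remaining named members.

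Ribosome assembly in the nucleolus, a set of genes known to depend on MYC, was lower in nearly every measured gene. Of 33 genes 31 were lower and 0 higher (93.9% called), with a median of -0.68 against -0.019 for all genes tested. NOP16, a nucleolar assembly factor, had 5.97, 4.69, 5.36, 5.84 and 5.20 at 468 nM and 6.84, 7.10, 7.07 and 6.85 in DMSO, a 2.93-fold fall without overlap (limma adjusted p = 5.84e-07). RRS1 (-1.53 ± 0.21) and MRTO4 (-1.25 ± 0.15), both factors of the large subunit, and the RNA helicase DDX21 (-1.11 ± 0.10) fell as well. The genes of the ribosomal proteins themselves did not follow this direction as a list. Of 25 cytosolic ones 2 were higher and 3 lower (median 0.070), 20% called against 45.6% for all genes tested. RPL32 fell by 1.32 ± 0.36 (adjusted p = 0.00355). It averaged 3.50 at 468 nM and 4.82 in DMSO, both under the filter value of 5, so the size is uncertain. RPS28 stood at 0.32 ± 0.08 (adjusted p = 0.00332), but at -0.058 (adjusted p = 0.828) with the mean of its probe sets. RPS23 at -0.41 ± 0.15 lost its call without 468 nM replicate 1 or DMSO replicate 3 or 4 (adjusted p = 0.0708 to 0.109). RPL6 at -0.33 ± 0.12 lost it without 468 nM replicate 1 or 2 or DMSO replicate 3 or 4 (0.0529 to 0.137). Without 468 nM replicate 1, or without DMSO replicate 3, 2 cytosolic genes were called higher and 1 lower, and 0 and 1 when only the groups compared entered the fit.

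In other lists of the protein synthesis machinery most measured genes were lower too, where 25.1% of all genes tested were called lower. The mitochondrial list depended most on the setting. Of 35 mitochondrial ribosomal protein genes 21 were lower and 0 higher (median -0.315), 60% called against 45.6% for all genes tested. They were led by MRPL15 (-1.11 ± 0.13), MRPS12 (-1.09 ± 0.17), MRPL3 (-0.79 ± 0.10) and MRPL39 (-0.76 ± 0.18). Without DMSO replicate 3, 13 were lower, with no filter 11, and with only the groups compared in the fit 10. Of 19 aminoacyl-tRNA synthetases, which load amino acids onto tRNAs, 15 were lower and 1 higher (median -0.474), 84.2% called. YARS1 (-1.28 ± 0.12), WARS1 (-1.06 ± 0.16), IARS1 (-0.88 ± 0.08) and CARS1 (-0.85 ± 0.10), for tyrosine, tryptophan, isoleucine and cysteine, were the most lowered. Of 7 subunits of the cytosolic chaperonin, which folds actin and tubulin, 6 were lower (median -0.366), 85.7% called, with CCT5 at -0.62 ± 0.10. CCT3 (-0.44 ± 0.07), CCT8 (-0.43 ± 0.09) and CCT4 (-0.37 ± 0.09) fell less.

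Entry into S phase and DNA replication were next in the order of the cell cycle, and both lists were lower. Of 20 G1/S and E2F genes 16 were lower and 2 higher (median -0.765), 90% called against 45.6% for all genes tested. Beside E2F8, the activators E2F2 (-2.23 ± 0.27) and E2F1 (-1.37 ± 0.17) and the phosphatase CDC25A (-1.58 ± 0.11), which activates CDK2, fell. Of 43 DNA replication genes 40 were lower and 0 higher (median -1.08), 93% called. GINS2, a subunit of the replicative helicase, had 5.44, 4.84, 6.12, 6.58 and 5.85 at 468 nM and 7.43, 7.84, 7.91 and 7.64 in DMSO. The 468 nM arrays varied but none reached a DMSO array, and GINS2 was 3.84-fold lower (limma adjusted p = 1.14e-07). The polymerase epsilon subunit POLE2 (-1.94 ± 0.30), the clamp loader subunit RFC3 (-1.83 ± 0.16) and ORC1 of the origin recognition complex (-1.65 ± 0.14) fell to a like extent. Of 25 nucleotide synthesis genes 23 were lower and 1 higher (median -0.844), 96% called. Among the lower ones were thymidylate synthase, TYMS (-1.61 ± 0.13), and CAD, which starts pyrimidine synthesis (-1.23 ± 0.16). MTHFD1, of the folate cycle (-1.11 ± 0.12), and PRPS1, which makes the ribose phosphate donor (-1.10 ± 0.13), fell too.

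Genes of mitosis fell without exception among those measured. All 43 were lower (median -1.43), where 25.1% of all genes tested were called lower. CDCA8, borealin of the chromosomal passenger complex, had 6.67, 5.94, 6.22, 7.49 and 6.24 at 468 nM, against 8.56, 8.44, 8.87 and 8.56 in DMSO, and was 4.27-fold lower (limma adjusted p = 2.89e-08). AURKA, the spindle pole kinase Aurora A, had 5.83, 4.93, 5.71, 6.23 and 5.55 at 468 nM and 7.49, 7.82, 8.07 and 7.53 in DMSO, a 4.21-fold fall. In both genes 468 nM replicate 4 was the highest of its group, yet it stayed below every DMSO array. UBE2C, the ubiquitin carrier of the anaphase-promoting complex (-2.08 ± 0.26), and ESPL1, separase, which splits sister chromatids (-1.93 ± 0.24), fell likewise. Of 33 centromere and kinetochore genes 31 were lower and 0 higher (median -1.15). HJURP, the loader of the centromeric histone CENPA (-1.93 ± 0.17), led them, with SPC24 (-1.83 ± 0.19), CENPQ (-1.74 ± 0.25) and SPC25 (-1.72 ± 0.22). Of 20 condensin and cohesin genes 17 were lower and 0 higher (median -0.632). CDCA5, sororin, fell by 1.5 ± 0.18, and the condensin subunits NCAPG (-1.32 ± 0.16), NCAPH (-1.32 ± 0.15) and NCAPG2 (-1.27 ± 0.13) fell side by side. Of 26 genes of homologous recombination and the Fanconi pathway 20 were lower and 1 higher (median -0.945). They included RAD51AP1 (-1.87 ± 0.16), RAD54L (-1.75 ± 0.21), FANCB (-1.63 ± 0.28) and the nuclease EXO1 (-1.48 ± 0.12).

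The 468 nM arrays did not show this fall to the same extent. Taken per array against the mean of the DMSO arrays, the median over the mitosis genes was -1.68, -1.61, -1.44, -0.798 and -1.58 at 468 nM, against -0.048, 0.034, 0.192 and -0.185 in DMSO. Replicate 4 was thus the least lowered array, also for DNA replication (-0.628, against -1.15 to -1.31 on the other 468 nM arrays) and for centromere and kinetochore genes (-0.542, against -1.23 to -1.40). Nucleolar ribosome biogenesis genes varied less, between -0.613 and -0.746. Without replicate 4 the medians of the comparison were -1.61 for mitosis, -1.19 for DNA replication and -1.29 for centromere and kinetochore genes, with the same counts of lower genes (43, 40 and 31). Since whole cultures were measured, fewer cells in S phase and mitosis and less RNA of these genes per cell cannot be told apart.

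**Figure D3:**
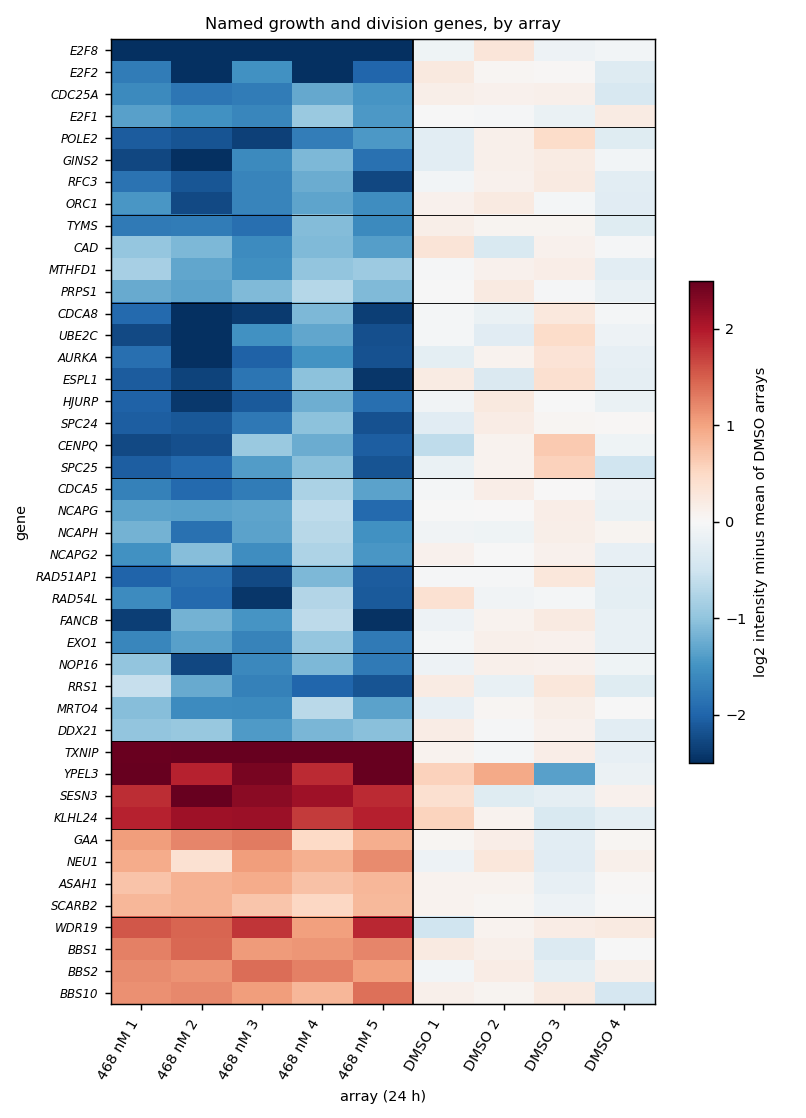
Log2 intensity minus the mean of the DMSO arrays (colour, blue lower and red higher) of the named genes of 11 growth, division, restraint, lysosome and cilia lists (rows, lines between lists) on the 5 arrays at 468 nM and the 4 in DMSO at 24 h (columns). The division genes are blue on all 468 nM arrays and mostly palest on replicate 4, where CDCA8 stands at 7.49 against 5.94 to 6.67 on the other 4.

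The promoters of genes that moved together are shown for the pairs of called members with the largest change in a list whose promoters hold a motif known for that list. They are the 250 bases before the gene start in the RefSeq annotation of GRCh38.p14, 5′ to 3′ on the gene's strand. For mitosis genes the motif was the cell cycle homology region TTTGAA, bound by the DREAM and MuvB complexes, which is in capitals in CDCA8 (chr1:37692266-37692515, plus strand) and ESPL1 (chr12:53268049-53268298, plus strand).
CDCA8: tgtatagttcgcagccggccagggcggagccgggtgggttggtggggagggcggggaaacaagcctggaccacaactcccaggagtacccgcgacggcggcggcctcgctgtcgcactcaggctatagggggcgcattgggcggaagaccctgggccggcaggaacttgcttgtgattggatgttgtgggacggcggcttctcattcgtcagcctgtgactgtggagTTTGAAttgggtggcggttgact
ESPL1: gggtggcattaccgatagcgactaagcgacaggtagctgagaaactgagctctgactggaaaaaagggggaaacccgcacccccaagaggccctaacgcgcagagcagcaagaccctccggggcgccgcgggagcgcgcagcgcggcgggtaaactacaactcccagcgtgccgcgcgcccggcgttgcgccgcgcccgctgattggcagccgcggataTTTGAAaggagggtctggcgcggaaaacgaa
The match begins 23 bases before the start of CDCA8 and 31 before that of ESPL1. On either strand, TTTGAA was present in 22 of 37 mitosis promoters (59.5%), in 8.51% of the 7506 promoters of genes tested and in 13.6% of all 27305 promoters. Of the 28 centromere and kinetochore promoters 5 held it (17.9%), and of the 37 DNA replication promoters 0. The CCAAT box, searched as CCAAT on either strand, was in 81.1% of mitosis promoters, against 36.1% of the promoters of genes tested and 33% of all. It was also in 57.1% of centromere and kinetochore, 56.8% of DNA replication and 45.5% of nucleotide synthesis promoters. Its share was 38.5% for nucleolar, 37% for ciliary and 33.3% for lysosome and autophagy promoters.

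For DNA replication the motif was an E2F site, searched as TTTGGCGC or TTTCCCGC on either strand. It is in capitals, read on the opposite strand, in GINS2 (chr16:85688955-85689204, minus strand) and RFC3 (chr13:33817899-33818148, plus strand).
GINS2: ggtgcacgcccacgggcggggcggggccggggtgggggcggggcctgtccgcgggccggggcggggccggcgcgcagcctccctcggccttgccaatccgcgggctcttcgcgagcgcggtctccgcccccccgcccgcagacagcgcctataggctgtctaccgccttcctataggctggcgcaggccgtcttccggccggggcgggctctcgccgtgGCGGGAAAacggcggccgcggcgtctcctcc
RFC3: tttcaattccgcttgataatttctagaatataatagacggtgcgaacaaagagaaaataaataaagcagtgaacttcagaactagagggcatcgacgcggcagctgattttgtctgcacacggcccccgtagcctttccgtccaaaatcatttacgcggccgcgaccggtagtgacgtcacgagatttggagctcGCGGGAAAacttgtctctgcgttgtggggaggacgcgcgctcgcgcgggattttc
Of 37 DNA replication promoters 10 held such a site (27%), against 3.52% of the promoters of genes tested and 1.96% of all. A match describes letters in this window and is no measurement of binding.

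Histone genes, most of them transcribed in S phase, changed in both directions. Of 20 measured genes 6 were higher and 7 lower (median -0.133), 65% called against 45.6% for all genes tested. H2BC14 had the largest fall of all genes tested, with 5.12, 2.86, 2.27, 5.30 and 4.25 at 468 nM and 8.55, 9.30, 8.70 and 8.95 in DMSO (-4.92 ± 0.42, limma adjusted p = 1.15e-09). Its 468 nM arrays were widely spread, and the lowest reached the array medians. H2BC18 had the largest rise, with 5.42, 6.10, 6.36, 5.80 and 5.79 at 468 nM, against 2.03, 1.79, 2.15 and 2.03 in DMSO (3.89 ± 0.31, limma adjusted p = 4.30e-10). All its DMSO arrays lay near or under the array medians, which leaves the size of the rise uncertain. H2BC18 averaged 2.98 at 75 nM, so at 24 h it passed the filter through the 468 nM arrays, where it was high. Its rank and p are therefore no independent support for the rise. The 3 probe sets of H2BC18 stood at 3.89, 3.77 and 1.21, the last with a mean of 1.84. H2BC21 (1.66 ± 0.21) and H2BC5 (1.42 ± 0.27) rose too, without overlap. H2B genes are near-identical copies, so probes of one may also read others.

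Among p53 target genes 7 of 18 were higher and 2 lower (median 0.139), 50% called against 45.6% for all genes tested. GADD45A, a stress-induced growth arrest gene, rose by 1.29 ± 0.16, the p53-induced oxidoreductase TP53I3 by 1.06 ± 0.22 and RRM2B, a ribonucleotide reductase subunit for repair, by 0.96 ± 0.14. AEN, an apoptosis-enhancing nuclease, fell by 1.78 ± 0.14. CDKN1A, the main p53-dependent CDK inhibitor, was below the filter on these arrays, at most 4.53. In the BCL2 family 4 of 16 were higher and 2 lower (median 0.032), a share below that of all genes tested. BCL2L11, the death-promoting protein BIM, had 4.62, 5.52, 5.05, 4.35 and 4.82 at 468 nM and 3.89, 3.36, 3.91 and 3.43 in DMSO. It was 2.34-fold higher without overlap (limma adjusted p = 2.32e-05), at a low level. All its DMSO arrays were below the filter value of 5, which some 468 nM arrays passed, so its p is no independent support. BCL2, the survival protein, had 7.45, 8.04, 7.18, 6.79 and 7.32 at 468 nM, against 8.34, 8.01, 8.06 and 8.04 in DMSO. Replicate 2 at 468 nM lay within the DMSO arrays, and BCL2 was 1.69-fold lower (limma adjusted p = 0.00205). The pore-forming protein BAK1 fell by 0.54 ± 0.16, and the initiator caspase CASP9 rose by 0.55 ± 0.15.

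Lineage and state genes of melanoma moved individually. Of 9 measured melanocyte lineage genes 4 were higher and 2 lower (median 0.305), 66.7% called against 45.6% for all genes tested. SOX10 had 10.39, 10.37, 9.99, 9.55 and 10.02 at 468 nM and 9.24, 9.37, 9.67 and 9.64 in DMSO, and rose by 0.58 ± 0.13 with overlap in replicate 4 (limma adjusted p = 8.51e-04). SOX5, a relative of SOX10 (0.71 ± 0.21), and the melanosome protein OCA2 (0.52 ± 0.14) rose, and RAB27A, which carries melanosomes to the cell edge, fell by 0.89 ± 0.12. Of 18 genes of the undifferentiated melanoma state 4 were higher and 5 lower (median -0.195), 50% called. TEAD4, a partner of the coactivator YAP, fell by 1.72 ± 0.20, and the matrix enzyme LOXL2 stood at 1.0 ± 0.30 (adjusted p = 0.00786, but 0.0606 without DMSO replicate 3).

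The AP-1 list had 7 of 21 genes higher and 5 lower (median 0.192), 57.1% called against 45.6% for all genes tested. FOSL1, an AP-1 subunit known to fall under BET inhibitors, had 5.34, 5.68, 5.39, 4.98 and 5.64 at 468 nM and 7.32, 7.19, 7.20 and 6.98 in DMSO. The groups were separate, and FOSL1 was 3.40-fold lower (limma adjusted p = 1.42e-09). Its partners JUN (0.84 ± 0.20) and JUND (0.88 ± 0.18) rose. EGR1, an immediate early factor, stood at 0.88 ± 0.28 (adjusted p = 0.0135, but 0.107 without DMSO replicate 1). Of 19 MAPK feedback genes 5 were higher and 5 lower (median 0.023), 52.6% called. PHLDA1 rose by 1.44 ± 0.20, while the ERK pathway brakes DUSP2 (-1.49 ± 0.24), SPRY1 (-1.42 ± 0.28) and DUSP7 (-1.35 ± 0.15) fell. The DMSO arrays of SPRY1 were uneven, with replicate 3 at 4.37 and the others at 5.29 to 5.47.

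Inflammatory genes held several of the large falls. Of 14 measured cytokine genes and NF-kB targets, 9 fell and 1 rose (median -1.01), 71.4% called against 45.6% for all genes tested. IL7R, the interleukin-7 receptor chain, had 2.66, 3.39, 2.57, 2.81 and 2.68 at 468 nM, against 7.93, 7.94, 7.14 and 7.15 in DMSO (-4.72 ± 0.28, limma adjusted p = 5.83e-12). IL1RL1, the receptor of interleukin-33, had 2.66, 2.96, 3.49, 2.46 and 3.23 at 468 nM and 7.26, 7.30, 7.20 and 7.04 in DMSO (-4.24 ± 0.50). IL6, an inflammatory cytokine, had 3.32, 2.40, 2.43, 2.39 and 2.44 at 468 nM and 5.58, 7.32, 5.13 and 7.19 in DMSO (-3.71 ± 0.59, limma adjusted p = 1.23e-05). All 3 genes lay near the median of all probe sets at 468 nM, so the falls reached the lower limit of measurement and their sizes are uncertain. The DMSO arrays of IL6 were themselves spread over more than 2 log2 units. TRAF1, an adaptor of TNF receptors, fell by 2.42 ± 0.32, and its 468 nM replicate 3 at 4.5 stood above the others at 2.61 to 3.38. Of 20 interferon-stimulated genes 9 were lower and 3 higher (median -0.423), 60% called. PARP14 (-1.78 ± 0.27), the RNA sensor OAS3 (-1.74 ± 0.32), the DNA sensor IFI16 (-1.64 ± 0.23) and the chaperone RTP4 (-1.44 ± 0.22) fell. OAS3 averaged 2.45 at 468 nM and 4.19 in DMSO, both under the filter value of 5, so its size is uncertain. B2M, the light chain of MHC class I, rose by 0.65 ± 0.15.

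Growth factor and matrix genes were mixed. Of 19 growth factors and receptor tyrosine kinases 8 were lower and 3 higher (median -0.391), 57.9% called, or 5 and 2 with no filter. FGF7, a growth factor for epithelia, had 4.18, 3.73, 3.84, 3.85 and 3.50 at 468 nM and 6.22, 5.96, 5.87 and 6.23 in DMSO, a 4.76-fold fall without overlap (limma adjusted p = 1.26e-07). At 468 nM all its arrays were below the filter value, which leaves the size uncertain. PDGFB (-1.20 ± 0.17), the TAM receptor TYRO3 (-1.05 ± 0.32) and FGFR2, a receptor of FGF7 (-0.94 ± 0.19), fell as well. Of 22 extracellular matrix genes 3 were higher and 2 lower (median -0.004), a share of 22.7% against 45.6% for all genes tested. Without DMSO replicate 3, 1 was higher and 2 lower. Thrombospondin 1, THBS1 (-1.69 ± 0.25), and SPARC (-0.60 ± 0.17) fell, and the laminin chain LAMC1 rose by 0.78 ± 0.16. THBS1 averaged 2.89 at 468 nM and 4.58 in DMSO, both under the filter value of 5, so its size is uncertain. Of 11 integrins 3 were higher and 2 lower (median 0.113), 45.5% called, as over all genes tested. ITGAV (0.65 ± 0.15) and ITGA6 (0.56 ± 0.11) rose, and ITGA4, the chain that binds VCAM1, fell by 1.29 ± 0.14. ITGA9 at -0.69 ± 0.25 lost its call without 468 nM replicate 3 or 4 or DMSO replicate 1 or 2 (adjusted p = 0.0609 to 0.0956).

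Most genes of amino acid supply were lower, and stress response genes were mixed between lower and not called. Of 23 genes of the ATF4 response and amino acid synthesis 16 were lower and 1 higher (median -0.653), 73.9% called. SLC7A11, the cystine importer, had 3.99, 4.16, 4.89, 4.5 and 4.65 at 468 nM, against 7.39, 6.65, 6.37 and 6.43 in DMSO, a 4.83-fold fall (limma adjusted p = 2.23e-05). At 468 nM all its arrays were below the filter value, which leaves the size uncertain. PYCR1, of proline synthesis (-1.25 ± 0.17), the arginine carrier SLC7A1 (-1.17 ± 0.12) and CHAC1, which degrades glutathione (-1.09 ± 0.25), fell too. Of 23 unfolded protein response genes 11 were lower and 1 higher (median -0.264), 52.2% called against 45.6% for all genes tested. XBP1, a central factor of that response, had 7.42, 7.45, 7.30, 7.45 and 7.58 at 468 nM and 8.46, 8.53, 8.64 and 8.62 in DMSO. The arrays of each group lay close together, and XBP1 was 2.17-fold lower (limma adjusted p = 8.30e-08). SDF2L1 (-1.60 ± 0.21), the vesicle coat protein SEC24D (-1.37 ± 0.20) and the sensor kinase EIF2AK3 (-0.98 ± 0.16) fell. Of 12 heat shock genes 8 were lower and 0 higher (median -0.431), 66.7% called, with HSPB1 (-0.77 ± 0.08), FKBP4 (-0.57 ± 0.11), HSPH1 (-0.56 ± 0.07) and DNAJB1 (-0.56 ± 0.15). Of 26 proteasome genes 9 were lower and 0 higher (median -0.169), 34.6% called, and 5 were lower when only the groups compared entered the fit. The ATPase subunit PSMC3 fell by 0.79 ± 0.12, while PSMD14 (-0.42 ± 0.13) lost its call when only the groups compared entered the fit (adjusted p = 0.0687) and PSMB2 (-0.45 ± 0.08) with the mean of its probe sets (0.139). PSMA3 at -0.39 ± 0.13 lost its call without 468 nM replicate 2 or 3 or DMSO replicate 2 or 4 (0.0534 to 0.0997).

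Glycolysis genes changed in both directions, and few oxidative phosphorylation genes were called. Of 23 glycolysis and hypoxia genes 6 were higher and 8 lower (median -0.019), 60.9% called against 45.6% for all genes tested, or 4 and 5 with no filter. HK2, the hexokinase of proliferating cells, had 6.52, 6.29, 6.06, 6.07 and 5.74 at 468 nM and 7.88, 7.39, 7.58 and 7.17 in DMSO, a 2.59-fold fall without overlap (limma adjusted p = 2.93e-08). Phosphofructokinase PFKP (-0.99 ± 0.17) and lactate dehydrogenase LDHA (-0.79 ± 0.14) fell, and the mitophagy receptor BNIP3L rose by 0.79 ± 0.14. Of 36 oxidative phosphorylation genes 5 were higher and 3 lower (median 0.071), 22.2% called, or 2 and 2 with no filter. The complex I subunits NDUFB5 (0.60 ± 0.18) and NDUFA2 (0.50 ± 0.14) rose and NDUFC1 (-0.50 ± 0.14) fell. COX8A at 0.46 ± 0.18 lost its call without 468 nM replicate 1, 3 or 4 or DMSO replicate 1 or 3 (adjusted p = 0.064 to 0.151). Of 18 cholesterol synthesis genes 2 were higher and 5 lower (median -0.038), 38.9% called, a share below that of all genes tested. TM7SF2, a sterol reductase (1.81 ± 0.22), and LSS, lanosterol synthase (0.78 ± 0.19), rose, while the isomerase EBP (-0.67 ± 0.18) and FDPS (-0.62 ± 0.20) fell. FDPS had an adjusted p of 0.059 when only the groups compared entered the fit.

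Growth restraint, cilia and lysosomes were the lists with the most rises. Of 16 genes of the growth restraint list, which holds YPEL, FOXO-type and sestrin genes, 12 were higher and 2 lower (median 1.03), where 20.4% of all genes tested were higher. YPEL3, a growth-suppressing protein of quiescent cells, had 5.95, 5.32, 5.76, 5.26 and 5.88 at 468 nM, against 3.96, 4.34, 2.04 and 3.24 in DMSO. It rose by 2.24 ± 0.35, with a low and uneven level in DMSO (limma adjusted p = 1.01e-05). All its DMSO arrays were below the filter value of 5 and all its 468 nM arrays above it. YPEL3 could thus pass the filter through the 468 nM arrays alone, so its p is no independent support. TXNIP, SESN3 and KLHL24, described above, are the other named members of this list. Of 31 genes of intraflagellar transport and cilia, structures that cells form when they leave the cell cycle, 20 were higher and 0 lower (median 0.635). WDR19, a subunit of the transport complex, had 6.93, 6.83, 7.17, 6.4 and 7.25 at 468 nM and 4.87, 5.46, 5.57 and 5.60 in DMSO, and was 2.91-fold higher (limma adjusted p = 6.47e-08). The Bardet-Biedl genes BBS1 (1.22 ± 0.18), BBS2 (1.20 ± 0.16) and BBS10 (1.12 ± 0.22) rose without overlap.

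Of 32 lysosome and autophagy genes 16 were higher and 3 lower (median 0.363), 59.4% called against 45.6% for all genes tested. GAA, the glucosidase that degrades lysosomal glycogen, had 8.52, 8.68, 8.76, 7.96 and 8.38 at 468 nM, against 7.51, 7.64, 7.20 and 7.51 in DMSO, a 1.99-fold rise (limma adjusted p = 8.50e-05). The sialidase NEU1 (0.88 ± 0.19), the ceramidase ASAH1 (0.82 ± 0.10) and the membrane protein SCARB2 (0.75 ± 0.11) rose. The motif searched here was the E-box CACGTG, bound by TFEB and its relatives in lysosomal genes, in capitals in GAA (chr17:80101331-80101580, plus strand) and NEU1 (chr6:31862822-31863071, minus strand).
GAA: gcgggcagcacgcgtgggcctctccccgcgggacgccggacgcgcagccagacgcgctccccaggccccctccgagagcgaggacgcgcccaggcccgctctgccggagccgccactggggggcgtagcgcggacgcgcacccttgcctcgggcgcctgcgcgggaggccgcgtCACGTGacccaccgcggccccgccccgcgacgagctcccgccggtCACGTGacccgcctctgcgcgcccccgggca
NEU1: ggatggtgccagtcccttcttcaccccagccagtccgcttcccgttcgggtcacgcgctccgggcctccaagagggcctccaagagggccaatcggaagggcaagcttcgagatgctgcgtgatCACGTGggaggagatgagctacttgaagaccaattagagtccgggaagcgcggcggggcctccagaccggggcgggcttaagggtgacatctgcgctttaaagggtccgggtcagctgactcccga
CACGTG was present in 9 of 24 lysosome and autophagy promoters (37.5%), in 9.09% of promoters of genes tested and in 6.49% of all, and GAA held it at 2 positions. It was not particular to this list. Its share was 22.7% for nucleotide synthesis, 16.2% for DNA replication and 15.4% for nucleolar ribosome biogenesis, lists with mostly lower genes. For centromere and kinetochore it was 14.3%, for mitosis 10.8% and for cilia 7.41%.

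The reference genes commonly used to scale expression were not stable here. Of 9 measured 3 were higher and 4 lower (median 0.057), 77.8% called against 45.6% for all genes tested. Without DMSO replicate 2, 2 were higher and 2 lower, or 2 and 1 when only the groups compared entered the fit. Beta-actin, ACTB, stood at 0.74 ± 0.24 (adjusted p = 0.0145, but 0.102 without DMSO replicate 2) and B2M at 0.65 ± 0.15, while HPRT1 (-0.49 ± 0.14) and the transferrin receptor TFRC (-0.48 ± 0.10) fell. HPRT1 missed the threshold when only the groups compared entered the fit (adjusted p = 0.0535).

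**Figure D4:**
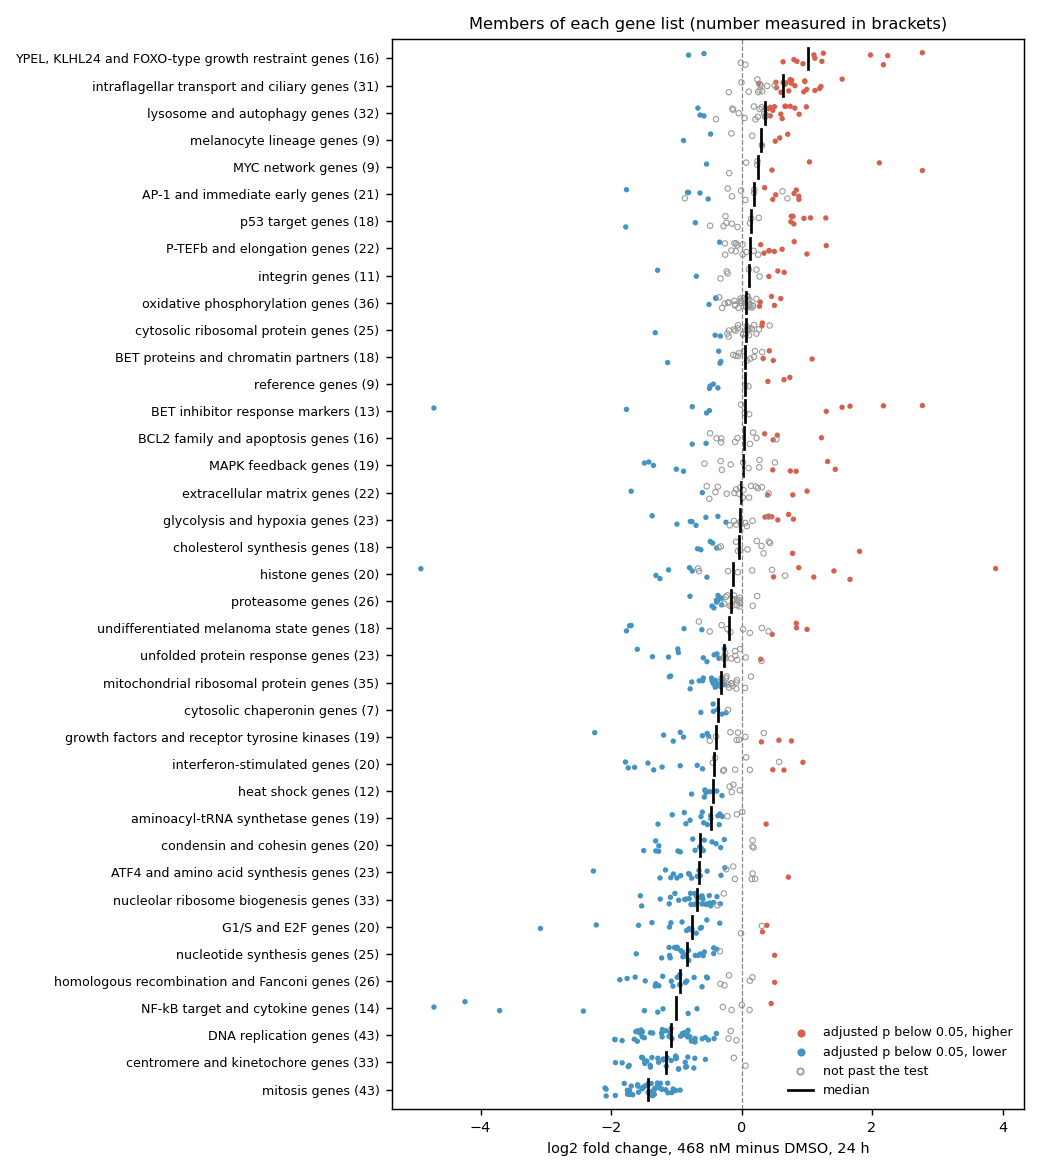
Log2 fold changes, 468 nM minus DMSO at 24 h (horizontal), of the measured members of 39 gene lists (rows, sorted by median; number measured in brackets), with called members filled in red (higher) or blue (lower), members past no test as open circles and the median as a black bar. The medians run from -1.43 for mitosis genes to 1.03 for the growth restraint list.

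A direct comparison of the doses at 24 h addressed which changes grew with dose. At 468 nM against 75 nM, limma called 2860 genes (30.8%), 1246 higher (13.4%) and 1614 lower (17.4%), and 2293 when only the groups compared entered the fit. The difference itself uses no DMSO array, although all 28 arrays share the estimate of spread. Among called genes without overlap and with a lower mean of at least 4, the largest positive differences were those of TXNIP (2.10 ± 0.17), ARRDC4 (1.82 ± 0.14), SAT1, which acetylates polyamines (1.64 ± 0.26), H2BC20P (1.60 ± 0.21) and SESN3 (1.53 ± 0.15). By the same rule the largest negative ones were those of FAM216B (-3.02 ± 0.23), CLEC12B (-2.81 ± 0.24), E2F8 (-2.56 ± 0.15), GIPC3 (-2.5 ± 0.25) and BCAT1 (-2.23 ± 0.16). Genes with a lower mean under 4 had larger ones, with H2BC18 at 2.92, IL7R at -3.33, CLEC2B at -3.18, H2BC14 at -3.16 and IL1RL1 at -3.15. TXNIP averaged 10.78 ± 0.22 at 468 nM, 8.68 ± 0.20 at 75 nM and 8.01 ± 0.17 in DMSO (SD, n = 5, 5 and 4). FAM216B averaged 6.64 ± 0.52 at 468 nM, 9.66 ± 0.25 at 75 nM and 10.11 ± 0.20 in DMSO. The 75 nM arrays of both genes thus lay much nearer to DMSO than to 468 nM. Of the 43 mitosis genes 43 were lower at 468 nM than at 75 nM (median -1.21), as were 39 of 43 DNA replication genes (median -0.894) and 27 of 33 ribosome biogenesis genes (median -0.498). Of 31 ciliary genes 19 were higher (median 0.492) and of 32 lysosome genes 14 were higher and 2 lower (median 0.24).

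Against the same DMSO arrays, 75 nM at 24 h gave 81 called genes (0.872%), 37 higher (0.398%) and 44 lower (0.474%). Without 75 nM replicate 2 or 3, 45 and 41 genes were called, and without DMSO replicate 1, 2 or 3, 52, 50 and 43. The count was 18 with no filter, 52 with only the groups compared in the fit, and 187 with array weights. Of the calls at 75 nM 45.7% were higher, and 15.3% when arrays were shifted to hold the reference genes level. Since both doses share these DMSO arrays, their values are set side by side only. At 75 nM the mitosis list had 0 of 43 genes called and a median of -0.222, against 43 of 43 and -1.43 at 468 nM. IL7R stood at -1.39 ± 0.28 at 75 nM (adjusted p = 0.0161) and at -4.72 ± 0.28 at 468 nM. HEXIM1 stood at 0.32 ± 0.13 (adjusted p = 0.201) and MYC at -0.01 ± 0.13 (adjusted p = 0.985) at 75 nM. In the direct comparison HEXIM1 was higher at 468 nM by 0.97 ± 0.12 and MYC lower by a difference of -0.53 ± 0.13 (limma adjusted p = 0.00225). The test between doses was not passed by BRD2 (0.15, adjusted p = 0.12), CCND1 (-0.22, adjusted p = 0.154) or SOX10 (0.30, adjusted p = 0.0721).

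**Figure D5:**
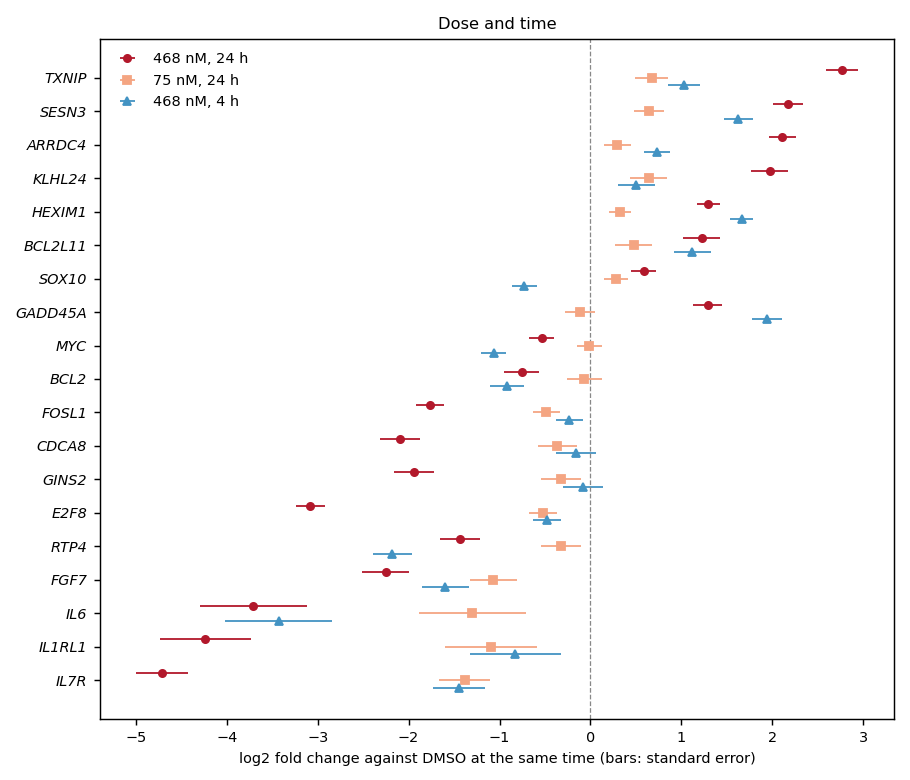
Log2 fold change against DMSO at the same time (horizontal, bars for the standard error) of 19 genes (rows) for 468 nM at 24 h (circles), 75 nM at 24 h (squares) and 468 nM at 4 h (triangles). IL7R at 468 nM and 24 h lies farthest from 0, at -4.72. Among each gene's own points, that at 468 nM and 24 h is the farthest for genes such as TXNIP, CDCA8, GINS2 and E2F8. For HEXIM1, GADD45A, MYC, BCL2, RTP4 and SOX10 the point at 4 h is farther. IL6 stands at -3.43 at 4 h and -3.71 at 24 h, and SOX10 at -0.73 at 4 h and 0.58 at 24 h.

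The time course was tested as the 468 nM effect at 24 h minus that at 4 h, each against DMSO of its own time. limma called 2184 genes (23.5%), 1005 with a higher (10.8%) and 1179 with a lower difference at 24 h (12.7%). When arrays were shifted to hold the reference genes level, the median of this difference over all genes moved to 0.115, from 0.010 without the shift, and the share of calls that were higher to 59.8%, against 46%. Differences below refer to the unshifted values. At 4 h limma called 1013 genes against DMSO (10.9%), 368 higher (3.96%) and 645 lower (6.95%), so 36.3% of calls were higher, or 16.2% with the shift, which moved the median of all genes at 4 h to -0.153. All 43 mitosis genes had a lower difference at 24 h than at 4 h (median -1.32), and at 4 h itself 3 of them were lower, with a median of -0.088. AURKA was among those already lowered at 4 h (-0.86, adjusted p = 0.00415). For DNA replication 32 of 43 genes had a lower difference at 24 h (median -0.965), and for aminoacyl-tRNA synthetases 11 of 19. Of 31 ciliary genes 14 had a higher one (median 0.575).

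The largest lower differences over time were those of CLEC2B, a lectin ligand of natural killer cells (-3.73), H2BC14 (-3.71), GIPC3 (-3.54), FAM216B (-3.52) and IL1RL1 (-3.41). CLEC2B averaged 2.0 at 468 nM and 5.96 in DMSO at 24 h, and 5.62 and 5.84 at 4 h. At 468 nM and 24 h it was thus under the array medians, which leaves the size uncertain. The largest higher ones were those of the antisense RNA gene LPP-AS2 (2.63), H2BC18 (2.58), YPEL3 (2.26), TBC1D2B, a regulator of RAB GTPases (2.17), and the microRNA gene MIR4534 (2.13). TBC1D2B fell at 4 h (-1.31 ± 0.14) and rose at 24 h (0.86 ± 0.14), and LPP-AS2 did the same (-1.32 at 4 h and 1.31 at 24 h). SOX10 also turned from lower at 4 h (-0.73, adjusted p = 4.31e-04) to higher at 24 h, with an interaction of 1.31 (limma adjusted p = 2.26e-05).

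Several responses present at both times did not pass the interaction test. IL6 was at -3.71 ± 0.59 at 24 h and -3.43 ± 0.59 at 4 h, and its interaction of -0.28 did not pass the test (adjusted p = 0.846). HEXIM1 was at 1.30 at 24 h and 1.67 at 4 h (interaction adjusted p = 0.135), BCL2L11 at 1.22 and 1.12 (0.831), BCL2 at -0.76 and -0.92 (0.707), and RTP4 at -1.44 and -2.18 (0.0835). A p above the threshold does not show that the effects were equal, and the RTP4 difference of 0.74 exceeded the 3 that follow. MYC was nearer to its DMSO level at 24 h (-0.54 ± 0.13) than at 4 h (-1.07 ± 0.13), with an interaction of 0.53 ± 0.19 (limma adjusted p = 0.0428). GADD45A (1.29 at 24 h and 1.94 at 4 h, adjusted p = 0.0412) and PDGFB (-1.20 and -1.86, adjusted p = 0.0422) likewise stood nearer to DMSO at 24 h.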

How the data were processed

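Total RNA of 28 CHL-1 samples was measured on Affymetrix arrays. The deposited intensity values are linear and were summarised by RMA, per the submitters' processing notes, with the RMA version and genome build not given in the sources used. The deposited intensities were transformed to log2. Of 53617 probe sets 23871 name 1 gene, 1842 several and 27904 none in the annotation used. Names were updated through RefSeq (22569 by gene ID, 733 by current and 565 by older symbol, 4 kept), and the brightest of several probe sets stood for a gene (663 genes). Genes above a log2 value of 5 on at least 4 arrays entered limma 3.58.1 (R 4.3.3), with 6 group means on all 28 arrays, 22 residual degrees of freedom, empirical Bayes moderation and Benjamini-Hochberg adjustment, and a gene was called at an adjusted p below 0.05. The fit was tested on simulated data.

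Groups came from the titles. Members and gene lists were chosen with earlier results of these data known. Genes named are the 10 largest rises and falls among called genes without overlap and with a lower mean of at least 4, a fixed set of genes, up to 4 called members per list with the largest change, and the 5 largest differences each way between doses, by the same rule, and over time by size alone. Promoters were shown for the 2 most changed called members that hold the motif. Alternatives were the filter, probe set choice, scaling, variance model, samples in the fit, replicate block and leaving out each array. No column lacked a sample, and no values were missing. One item is not reported here.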

Additional observations from a re-analysis of the deposited data

Results flagged for a closer look

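In 12 of 342 groups of 4 or 5 arrays tested, the highest or the lowest array stood apart by Dixon's criterion, which chance meets in about 1 of 20 groups. The value given is the gap to the nearest array over the range of the group. Among the 468 nM arrays, replicate 2 stood apart for EP300 (0.891, at 10.08 against 9.18 to 9.28), IL7R (0.712, at 3.39 against 2.57 to 2.81) and MOG (0.913, at 2.53 against 4.30 to 4.47). Replicate 1 did for IL6 (0.946, at 3.32 against 2.39 to 2.44) and replicate 4 for CARS1 (0.76, at 6.94 against 6.60 to 6.68). Among the DMSO arrays, replicate 3 was low for H2BC21 (0.91), HSPB1 (0.831) and SPRY1 (0.84), and replicate 1 was high for BCL2 (0.851) and PARP14 (0.84). Replicate 2 was high for E2F8 (0.86) and replicate 4 low for CDC25A (0.915).

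For 121 named genes the log2 effect of 468 nM differed between 24 h and 4 h by limma's interaction test, each time against DMSO of the same time. The value in brackets is the 24 h effect minus the 4 h effect, and it shares arrays with the 24 h comparison. Among the leading lower genes these were BCAT1 (-2.76), CLEC12B (-2.76), CLMP (-2.64), FAM216B (-3.52), GIPC3 (-3.54), MOG (-2.64), RXRG (-2.60), SCARA5 (-2.37) and SLN (-2.84). Among the leading higher genes they were CALCOCO1 (1.95), CLIP3 (1.76), H6PD (1.82), TOB2P1 (1.73) and ZC3H6 (1.47), and by size over time CLEC2B (-3.73), LPP-AS2 (2.63), MIR4534 (2.13) and TBC1D2B (2.17).

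The named division genes all had negative values. They were AURKA (-1.21), CDCA8 (-1.93), ESPL1 (-1.72) and UBE2C (-1.65) of mitosis, and CENPQ (-1.99), HJURP (-1.46), SPC24 (-1.69) and SPC25 (-1.66) of the kinetochore. Condensin and cohesin genes were CDCA5 (-1.34), NCAPG (-1.28), NCAPG2 (-1.24) and NCAPH (-1.20), and replication genes GINS2 (-1.86), ORC1 (-1.60), POLE2 (-1.44) and RFC3 (-1.49). CDC25A (-1.38), E2F1 (-1.40), E2F2 (-1.36) and E2F8 (-2.61) of the G1/S list and EXO1 (-1.27), RAD51AP1 (-1.49) and RAD54L (-1.65) of recombination were further ones. Histone genes were H2BC18 (2.58) and H2BC14 (-3.71).

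Biosynthesis genes were mostly negative as well. CAD (-1.07), MTHFD1 (-1.11), PRPS1 (-1.0) and TYMS (-1.53) make nucleotides, and DDX21 (-0.77), MRTO4 (-1.0) and NOP16 (-1.13) act in the nucleolus. CARS1 (-0.73), IARS1 (-0.84), WARS1 (-0.90) and YARS1 (-1.13) are tRNA synthetases, and CCT3 (-0.37), CCT4 (-0.40), CCT5 (-0.51) and CCT8 (-0.50) chaperonin subunits. MRPL15 (-0.80), MRPL3 (-0.70), MRPL39 (-0.69), MRPS12 (-0.87) and RPL32 (-1.49) are ribosomal. CHAC1 (-1.28), PYCR1 (-1.02), SLC7A1 (-0.75) and SLC7A11 (-1.69) belong to the ATF4 list, and EIF2AK3 (-1.08), SDF2L1 (-1.55), SEC24D (-1.45) and XBP1 (-0.95) to the unfolded protein response. DNAJB1 (-0.92), FKBP4 (-0.53), HSPB1 (-0.79) and HSPH1 (-0.70) are heat shock genes, and PSMB2 (-0.39) and PSMC3 (-0.64) proteasome genes. HK2 (-1.23), LDHA (-0.74), PFKP (-1.02) and BNIP3L (0.73) are of the glycolysis list, and TM7SF2 (1.47) and EBP (-0.81) of cholesterol synthesis.

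The named restraint, cilia and lysosome genes were positive, with KLHL24 (1.47), YPEL3 (2.26), BBS1 (1.12), BBS10 (1.60), BBS2 (0.98), WDR19 (1.21), ASAH1 (0.82), GAA (0.96) and SCARB2 (0.69). Over the whole lists, 7 restraint genes had a higher and 1 a lower difference, and 6 lysosome genes a higher and 2 a lower one. Regulators were TXNIP (1.74), ARRDC4 (1.38), MYC (0.53), ELL2 (0.50), MLLT3 (0.88), KAT2B (0.96), JMJD6 (-0.75), FOSL1 (-1.53), DUSP7 (-0.93), AEN (-1.26) and GADD45A (-0.65). Lineage and state genes were SOX10 (1.31), SOX5 (1.07), RAB27A (-0.79), TEAD4 (-1.42) and THBS1 (-1.37). Immune genes were IL7R (-3.27), IL1RL1 (-3.41), IFI16 (-1.27), OAS3 (-1.63) and PARP14 (-1.45). Adhesion and growth factor genes were ITGA6 (0.53), ITGAV (0.60), ITGA4 (-1.13), LAMC1 (0.62), SPARC (-0.67) and PDGFB (0.66), and reference genes HPRT1 (-0.60) and TFRC (-0.63).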

How the results depend on the processing

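Of 171 named genes tested 170 were called, and 16 of these missed the threshold in at least 1 of 18 settings. RPS28 changed sign, to -0.058, with the mean of all probe sets. With a filter at 7, which tested fewer genes, 2772 genes were called between 468 nM and DMSO at 24 h, 1471 of them lower. For the time comparison, 650 genes had a higher difference with no filter and 749 a lower one when the reference genes were held level. The cause of the last 2 values was not tested. Leaving out 1 array at a time gave 3809 to 4282 calls between 468 nM and DMSO (1632 to 1980 higher, 2093 to 2302 lower), 2537 to 2929 between the doses (1038 to 1345 higher, 1448 to 1584 lower) and 1903 to 2372 over time (836 to 1136 higher, 1025 to 1236 lower). The running numbers in the titles recur in steps of 26 within each group, which orders the arrays into blocks. No label says what a block is, and the main fit left the blocks out. Correlations of deviations within a block were 0.250, 0.105, 0.305 and 0.0148 between 468 nM and DMSO. Between 468 nM and 75 nM they were 0.139, 0.173, 0.081, 0.176 and 0.193. All but the 0.0148 exceeded the highest correlation with another block, so arrays of a block may share variation that the main fit does not model. With the numbers as a replicate block, 4506 genes were called, 4159 of them shared with the 4231, and 234 at 75 nM. Chosen after seeing the data, the difference of the 468 nM and DMSO arrays within a block had medians of -1.59, -1.46, -0.969 and -1.47 for mitosis genes. Genes near the array medians of 2.44 to 2.49 have uncertain fold sizes, and the number of arrays limits precision. Another background correction was not run, as probe-level values were not used here.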

Other observations

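Some gene families, grouped by symbol after the data were seen, are described by counts in the comparison of 468 nM with DMSO at 24 h, where 45.6% of all genes tested were called and the median was -0.019. Of 27 kinesin genes, the motors that move along microtubules, 15 were lower and 5 higher (median -0.671). KIF18B, KIF14 and KIF24 had the largest falls, and KIF3A and KIF3B, motor subunits of intraflagellar transport, were among the higher ones with KIFC2. Of 18 tubulin genes 10 were lower and 1, TUBG2, was higher (median -0.49), with TUBB4A, TUBA1B and TUBB2A the most lowered. Of 18 nuclear pore genes 14 were lower and 0 higher (median -0.526), led by NUP85, NUP205 and NUP37.

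Of 186 SLC transporter genes 54 were lower and 29 higher (44.6%, median -0.084), with SLC7A11, SLCO4A1 and SLC1A3 the most lowered and SLC9A3, SLC22A17 and SLC35E2A the most raised. Of 248 zinc finger genes with a ZNF symbol 41 were higher and 47 lower (35.5%). Of 95 small nucleolar RNA genes 12 were higher and 6 lower (18.9%), and of 71 microRNA genes 8 were higher and 6 lower (19.7%). Of 63 antisense RNA genes 16 were higher and 11 lower (42.9%, median 0.267). Members of such families share sequence, and RNA of overlapping genes may contribute to antisense probe sets.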
